A study of Mus musculus with 2 samples.

Results

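Exonic open sites away from gene starts were described in DNase-seq peak lists of mouse frontal cortex. A peak was taken as such a site if its centre lay in an exon of a protein-coding gene of GENCODE release M21, over 1 kb from every annotated transcript start of any gene, on an autosome. Of 101790 autosomal peaks in replicate 1, 4595 were exonic sites, and of 79516 in replicate 2, 2970 were (the full lists held 104654 and 81654 peaks). The sites were split into 2994 and 2000 in last exons and 1601 and 970 in other exons. Among the called peaks, the rule used position only, not the signal or any other measured value.

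DNase-seq maps where the nuclease DNase I can cut chromatin, and so where regulatory DNA is free of nucleosomes. The study holds 1 group of 2 libraries, labelled biological replicates 1 and 2, from frontal cortex tissue of female B6CASTF1/J mice aged 10 days, the F1 cross of B6 with CAST. Both libraries list the same donor entry, and "3x" in the labels is not explained, so whether each library is 1 animal or a pool cannot be told. There are no conditions to compare, no test was run, and each value below is given for both libraries. Fewer open cells and weaker opening in each cell cannot be told apart in whole tissue.

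The tissue label was set against marker genes. A peak lay within 1 kb of a start for 17 and 16 of 19 pan-neuronal and synaptic genes in replicates 1 and 2, for 14 and 12 of 15 excitatory and 8 and 6 of 12 inhibitory neuron genes. It did so for 10 and 10 of 12 astrocyte, 7 and 6 of 11 oligodendrocyte-lineage, 9 and 7 of 12 endothelial and mural and 5 and 3 of 12 microglial genes, and for 3 and 2 of 14 liver and muscle genes. The share of all coding genes with such a peak was not computed, so no list is shown to be above that background. Replicate 1 also stood apart in 1 way that bears on the counts below: 291 windows of 50 kb held at least 10 of its peaks that no peak of replicate 2 overlapped, against 9 such windows for replicate 2. These windows held 14.9% of the exonic sites of replicate 1 and 4.24% of those of replicate 2, against 6.04% and 2.03% of all autosomal peaks. They were defined after the peak positions were seen, and values without them are given beside the main densities, shares and gene lists they bear on.

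Most open chromatin lies at promoters, in introns and between genes, and is read as promoters, enhancers and insulators. Exons can hold such elements too, and there the same bases encode protein or a transcript's untranslated end and are also read by DNA-binding proteins. CTCF, a zinc finger protein that marks insulators and the anchors of chromatin loops, is known to bind in all these places. A footprint is a short stretch within an open site that is cut less than its surroundings, as under a bound protein.

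The coding windows below show this overlap of codon and binding-site sequence. Each is 150 bases of mm10 reference sequence (C57BL/6J; the CAST alleles of these mice were not examined) that lies wholly in coding sequence of the named gene, printed on the strand of the match, 5′ to 3′. Capitals mark the match to a consensus, which a footprint covered by at least 0.5 of its length in both libraries. Windows to print were chosen among paired sites on autosomes other than 18. Of these, the first 3 are the strongest exonic sites of this kind with a CTCF match.
Synpo2l (chr14:20661093-20661242, minus strand): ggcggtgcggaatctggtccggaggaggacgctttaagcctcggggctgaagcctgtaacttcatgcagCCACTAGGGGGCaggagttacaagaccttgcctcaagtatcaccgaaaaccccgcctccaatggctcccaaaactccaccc
Hey1 (chr3:8664623-8664772, plus strand): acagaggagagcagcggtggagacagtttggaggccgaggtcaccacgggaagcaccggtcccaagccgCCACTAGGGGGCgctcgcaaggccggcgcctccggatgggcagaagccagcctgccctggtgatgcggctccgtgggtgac
Gpr153 (chr4:152283310-152283459, minus strand): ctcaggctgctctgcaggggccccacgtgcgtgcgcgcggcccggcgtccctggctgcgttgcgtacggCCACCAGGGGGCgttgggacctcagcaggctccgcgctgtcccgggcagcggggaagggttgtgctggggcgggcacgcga

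The Synpo2l site, in a gene for an actin-associated protein of muscle, had a peak signal of 4.401 in replicate 1 and 5.15 in replicate 2. The authors gave every peak such a signal, on a scale that is not stated, and the median over exonic sites was 0.536 and 0.823. Hey1, a transcriptional repressor downstream of Notch, held a site of 3.24 and 4.39, and Gpr153, an orphan receptor gene, one of 2.59 and 3.06. All 3 lay in last exons, 3393, 1914 and 1021 bp from the nearest start, far above the medians of both libraries. Of exonic sites paired 1 to 1 between the libraries, 194 had a CTCF match under a footprint in both, and for 12 of these the window was wholly coding.

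For 5 further motifs chosen for printing, the strongest wholly coding window with a match is shown next, chosen on the same chromosomes. The order is EGR (GCGTGGGCG), NRF1 (GCGCATGCG), RFX (GTTGCCATG) and YY1 (AAGATGGCG). No window met the same terms for the fifth, the CRE (TGACGTCA), and windows for the other 8 motifs searched were not sought.
Frem2 (chr3:53525796-53525945, minus strand): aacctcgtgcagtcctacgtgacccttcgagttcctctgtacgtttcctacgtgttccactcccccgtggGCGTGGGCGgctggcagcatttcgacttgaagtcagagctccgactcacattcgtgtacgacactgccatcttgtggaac
Angptl6 (chr9:20878344-20878493, plus strand): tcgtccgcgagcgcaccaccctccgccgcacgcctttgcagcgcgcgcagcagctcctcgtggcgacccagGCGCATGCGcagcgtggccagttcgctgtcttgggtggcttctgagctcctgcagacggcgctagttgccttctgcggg
Sphkap (chr1:83277176-83277325, plus strand): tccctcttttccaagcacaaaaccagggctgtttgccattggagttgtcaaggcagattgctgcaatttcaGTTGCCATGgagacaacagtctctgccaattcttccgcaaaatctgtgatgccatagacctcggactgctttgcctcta
Spi1 (chr2:91115189-91115338, plus strand): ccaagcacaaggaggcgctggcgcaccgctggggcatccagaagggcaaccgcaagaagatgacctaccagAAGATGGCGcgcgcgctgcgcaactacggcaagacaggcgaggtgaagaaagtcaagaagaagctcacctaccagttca

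The NRF1 match in Angptl6, a secreted angiopoietin-like factor, lay in the strongest other-exon site of the series, at 9.98 and 12.4. Frem2, an extracellular matrix gene, had 2.50 and 3.27, and Sphkap, an anchoring protein gene for protein kinase A, had 1.42 and 1.50. Spi1, which encodes the myeloid factor PU.1, held its YY1 match in the last exon at 2.90 and 4.93. Matches covered by footprints in both libraries were few for these motifs: 5 paired sites for EGR, 13 for NRF1, 11 for RFX and 3 for YY1. In every window shown the whole match was covered in both libraries, except that in Sphkap replicate 2 covered 66.7% of it.

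Exonic sequence was open more often than its length would give. Exonic sites were 4.51% and 3.74% of autosomal peaks (mean 4.12% ± 0.551, SD, n = 2). Coding-gene exons over 1 kb from every start held 69.9 and 45.2 sites per Mb, against 30.2 and 22.6 peaks per Mb of all autosomal sequence over 1 kb from starts, a ratio of 2.16 ± 0.220 (SD, n = 2). Introns held 33.1 and 24.5 peaks per Mb and intergenic sequence 25.5 and 19.6. The order exon, intron, intergenic was the same in both libraries, and all 3 were below the 225 and 192 per Mb within 1 kb of starts.

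Last exons as a whole were less dense than other exons, but their coding sequence was denser than that of other exons. The only exon of an unspliced transcript counts as last here. Densities without such exons were not computed, so these values are not those of spliced genes alone. Last exons, which make up 69.8% of the eligible exonic bases, held 65.2% and 67.3% of the sites. The density was 65.2 and 43.5 per Mb in last exons and 80.7 and 48.9 in other exons, a ratio of 0.849 ± 0.0586 (SD, n = 2). This order turned when only the strongest 50% of autosomal peaks were used, where the ratio was 1.13. Within last exons, coding sequence held 163 and 108 sites per Mb and 3' UTR sequence 51.2 and 34.2. Coding sequence of other exons held 83.0 and 49.2 sites per Mb, between the other two in both libraries. Outside the dense windows, with their bases left out too, the ratio of last over other exons was 0.862 and that of exonic over all sequence away from starts 2.05.

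**Figure D1:**
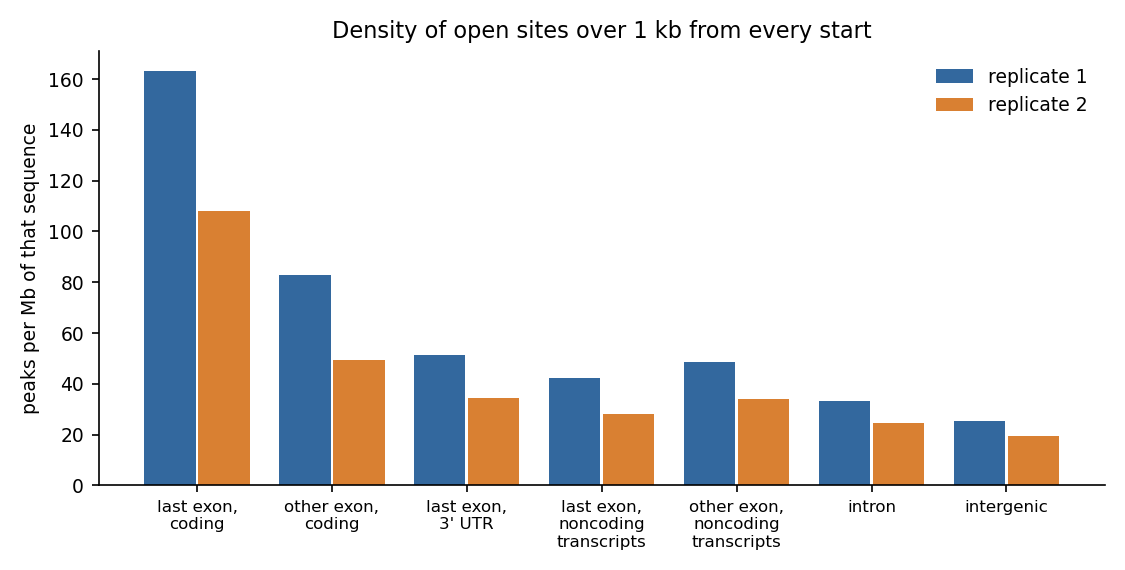
Peaks per Mb (bars, vertical axis) whose centre lies over 1 kb from every start, by the kind of sequence at the centre, for replicate 1 (blue) and replicate 2 (orange). Of the kinds plotted (5' UTRs, and 3' UTRs of other exons, are left out for their few sites), coding sequence of last exons is highest at 163 and 108 per Mb, above coding sequence of other exons at 83.0 and 49.2. Bars labelled noncoding transcripts cover exons of coding genes outside every transcript annotated as protein-coding.

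The lead of last-exon coding sequence was present at every distance from a start. At 1 to 2 kb it held 325 and 201 sites per Mb, against 149 and 85.1 in coding sequence of other exons. Over 20 kb from any start it held 111 and 72.8, against 73.5 and 47.0. Outside the windows dense in peaks of 1 library the values over all distances were 148 and 106 for last and 69.8 and 48.3 for other coding sequence. Coding sequence was not compared at like exon length. Other exons as a whole held 62.5 and 38.6 sites per Mb below 200 bp of merged exon and 120 and 75.4 from 500 to below 2000 bp. In every length class last exons as a whole were below other exons in both libraries. Of the remaining sites, 438 and 291 lay in last-exon sequence outside every transcript annotated as protein-coding, such as retained introns, at 42.3 and 28.1 per Mb. A further 14 and 15 lay in 5' UTRs of last exons, at 102.8 and 110.1 per Mb of a short sequence (0.136 Mb). Other exons held 58 and 46 sites in 5' UTRs, 5 and 2 in 3' UTRs and 94 and 66 outside every transcript annotated as protein-coding.

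Exonic sites were rich in G and C. Their 200 bp windows had a mean GC content of 56.9% and 56.4%, against 45.4% in windows taken at every 1000th eligible exonic base. The CpG observed/expected ratio, which is low in methylated mammalian DNA, averaged 0.421 and 0.439 against 0.258. CpG-island-like windows, with at least 50% GC and a ratio of at least 0.6, were 21.9% and 24.0% of exonic sites, 2.94% of exonic windows, 4.36% and 4.69% of intronic peaks, and 54.6% and 59.5% of peaks at starts. Exonic sites thus lay between intronic and start-site peaks in this measure in both libraries. Last-exon coding sites had a median ratio of 0.589 and 0.635, other-exon coding sites 0.412 and 0.424, and 3' UTR sites 0.253 and 0.282. The base composition of a window can also affect DNase I cutting and read counts, and its part in these densities was not tested.

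Density was also compared at like GC, with eligible length estimated from the sampled windows. From 50% to below 60% GC, last-exon coding sequence held 137 and 92.1 sites per Mb and 3' UTRs 137 and 96.4, while coding sequence of other exons held 100.04 and 61.7. At 60% GC or above the values were 634 and 406 for last-exon coding sequence, 456 and 246 for 3' UTRs and 344 and 169 for other coding sequence. From 40% to below 50% the 3 kinds ran from 28.1 to 29.7 in replicate 1 and from 20.7 to 23.8 in replicate 2. Last-exon coding sequence and 3' UTRs were thus close to each other from 40% to below 60% GC, and apart at 60% or above, where 15.5% of last-exon coding windows and 1.96% of 3' UTR windows lay.

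Most sites were weak, with a few very strong ones. Signal ran from 0.0521 to 30.4 in replicate 1 and from 0.0902 to 29.4 in replicate 2. The median was 0.573 and 0.868 in last exons and 0.484 and 0.744 in other exons, beside 0.531 and 0.756 in introns, 0.479 and 0.699 between genes and 1.02 and 1.43 at starts. Last-exon sites were above intronic peaks and other-exon sites in both libraries, while all 3 were below peaks at starts. Median peak width was 186 and 182 bp, against 200 bp for all autosomal peaks.

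**Figure D2:**
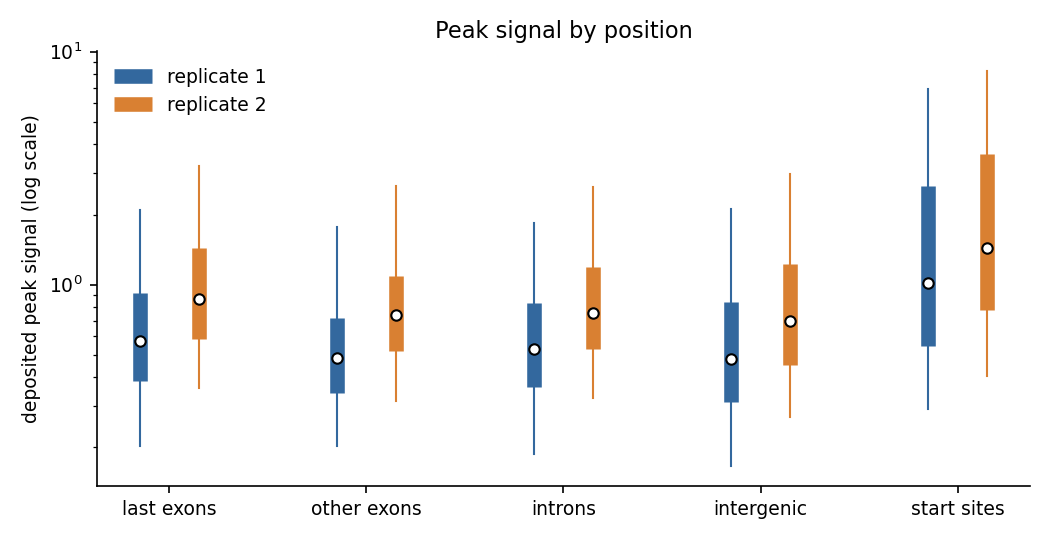
Deposited peak signal (vertical axis, log scale) by position for replicate 1 (blue) and replicate 2 (orange); circles are medians, thick bars the middle 50% and thin lines the 5th to 95th percentile. Last-exon sites have medians of 0.573 and 0.868, below those at starts (1.02 and 1.43).

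The 3 strongest last-exon sites were in 3' UTRs and stood far above the rest. Cers5, a ceramide synthase gene, held the strongest exonic site, on chromosome 15 at 99735661 to 99735920, with a signal of 30.4 and 29.4. Lars2, the mitochondrial leucyl-tRNA synthetase gene, held the next, on chromosome 9 at 123461901 to 123462120, with 27.6 and 26.3. The third was in Ubqln1, a ubiquitin-binding shuttle of the proteasome, on chromosome 13 at 58177621 to 58177820, with 15.6 and 15.1. These 3 sites were higher in replicate 1 than in replicate 2, the reverse of most exonic sites. In the Lars2 window 57.6% of 31-base words occur again in the assembly, with a median of 2 copies, so its reads could come from other copies; no word of the Cers5 and Ubqln1 windows was repeated.

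The other 7 of the 10 strongest last-exon sites lay close together in signal. Fbxl22, an F-box gene, had a coding site with 6.31 and 7.19 on chromosome 9 at 66511641 to 66512020, 2762 bp from a start. Zfp771, a zinc finger gene, had a coding site with 5.58 and 6.55 on chromosome 7 at 127254021 to 127254520. Both windows had 73.5% GC and held 6 to 10 footprints in each library. The site of Prss22, a serine protease gene, had 4.88 and 7.89, and that of Skap2, an adaptor of Src-family kinases, 5.94 and 6.51. Bcat2, which starts the breakdown of branched-chain amino acids, had 5.97 and 6.32, and the small GTPase gene Rap2b, with B430305J03Rik at the same bases, 5.93 and 6.06. The last was Shank1, a scaffold gene of the postsynaptic density, where the centre also lies in 1700008O03Rik, with 5.52 and 6.41.

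Among other exons, Angptl6 led, on chromosome 9 at 20878141 to 20878520. Crlf2, a cytokine receptor subunit for TSLP, followed with 7.18 and 7.21 on chromosome 5 at 109557441 to 109557720. The remaining 8 ran from 3.32 to 4.61 in replicate 1 and from 4.44 to 5.66 in replicate 2. They were Stk35 (a kinase), Def6 (an exchange factor of lymphocytes), Myo3b (a class III myosin), Nup160 and Psmc2 (subunits of the nuclear pore and of the proteasome), Rsad1, Klf1 (the erythroid Krüppel-like factor) and Zfp219 (a zinc finger gene). All 10 were in coding sequence except that of Nup160, in a 5' UTR. Only the Myo3b site, on chromosome 2 at 70126881 to 70127100 with 4.58 and 4.73, was over 5 kb from a start, at 30693 bp. Angptl6, Crlf2, Stk35, Psmc2, Klf1 and Zfp219 lay within 1.5 kb of one.

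The libraries gave like values where both called a site. There were 1985 exonic sites paired 1 to 1, of which 1378 were in last and 602 in other exons in both libraries. Across these sites, which share their library's scaling and are not independent replicates, the log2 signals had a Pearson correlation of 0.944 and a Spearman correlation of 0.930, given as a description. The median log2 difference, replicate 1 minus replicate 2, was -0.30 with an SD of 0.32 across sites, and 363 of the 1985 were higher in replicate 1. After centring on the median of all paired peaks, 4 sites (0.202%) differed by over 2-fold, against 0.376% of all paired peaks. These were chosen after their values were seen: Gdap1, a mitochondrial fission gene, was higher in replicate 1 (0.557 and 0.327), while Vwa8 (0.349 and 0.835), the ribonucleotide reductase gene Rrm2b (0.333 and 0.846) and the GABA receptor subunit gene Gabra6 (0.182 and 0.507) were higher in replicate 2.

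**Figure D3:**
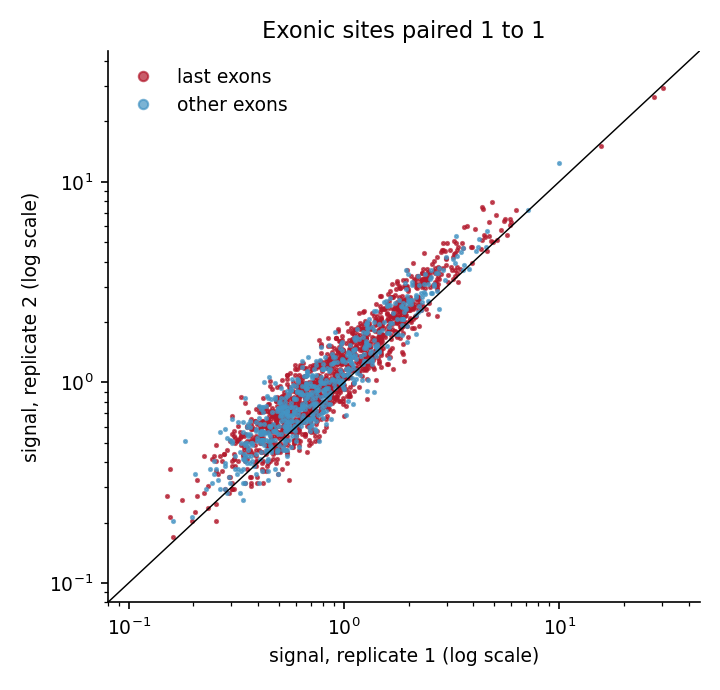
Signal in replicate 1 (horizontal) against replicate 2 (vertical), both on log scales, for 1985 exonic sites paired 1 to 1; red points are last exons, blue points other exons, and the line marks equal signal. Most points lie above the line (the median log2 difference was -0.30), and the 3 strongest last-exon sites lie just below it.

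Exonic sites were shared less than other peaks in replicate 1. A site was shared if it overlapped a peak of the other library by at least 1 bp. In replicate 1, 2354 of 4595 sites (51.2%) were shared, against 64.8% of all autosomal peaks, 58.7% of intronic peaks and 61.4% of those between genes. In replicate 2, 2355 of 2970 (79.3%) were shared, against 83.0% of all autosomal peaks, 78.9% of intronic and 79.9% of intergenic peaks. Last-exon sites were shared in 53.8% and 81.0% and other-exon sites in 46.3% and 75.9%. Outside the dense windows the shares of exonic sites were 57.8% and 79.4%, against 67.6% and 82.9% of all peaks.

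Sharing rose with signal, so it was also compared within quintiles of the signal of all autosomal peaks. In the 3 lowest quintiles of replicate 1, 13.1%, 33.3% and 55.3% of last-exon and 13.8%, 32.6% and 55.5% of other-exon sites were shared, against 20.7%, 45.4% and 65.5% of intronic peaks. In the top quintile 99.7% and 100% of exonic sites were shared. Outside the dense windows the 3 lowest quintiles gave 17.1%, 37.7% and 58.5% for last exons and 25.6%, 46.7% and 66.5% for introns. In the same quintiles of replicate 2 the shares were 50.9%, 66.9% and 86.9% for last exons and 49.3%, 72.6% and 90.1% for introns. Intergenic peaks of replicate 2 were shared in 54.4%, 80.0% and 93.0%, above both exon kinds. Against introns the lower share of exonic sites was thus wide in replicate 1 and small, or turned in the lowest quintile, in replicate 2.

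**Figure D4:**
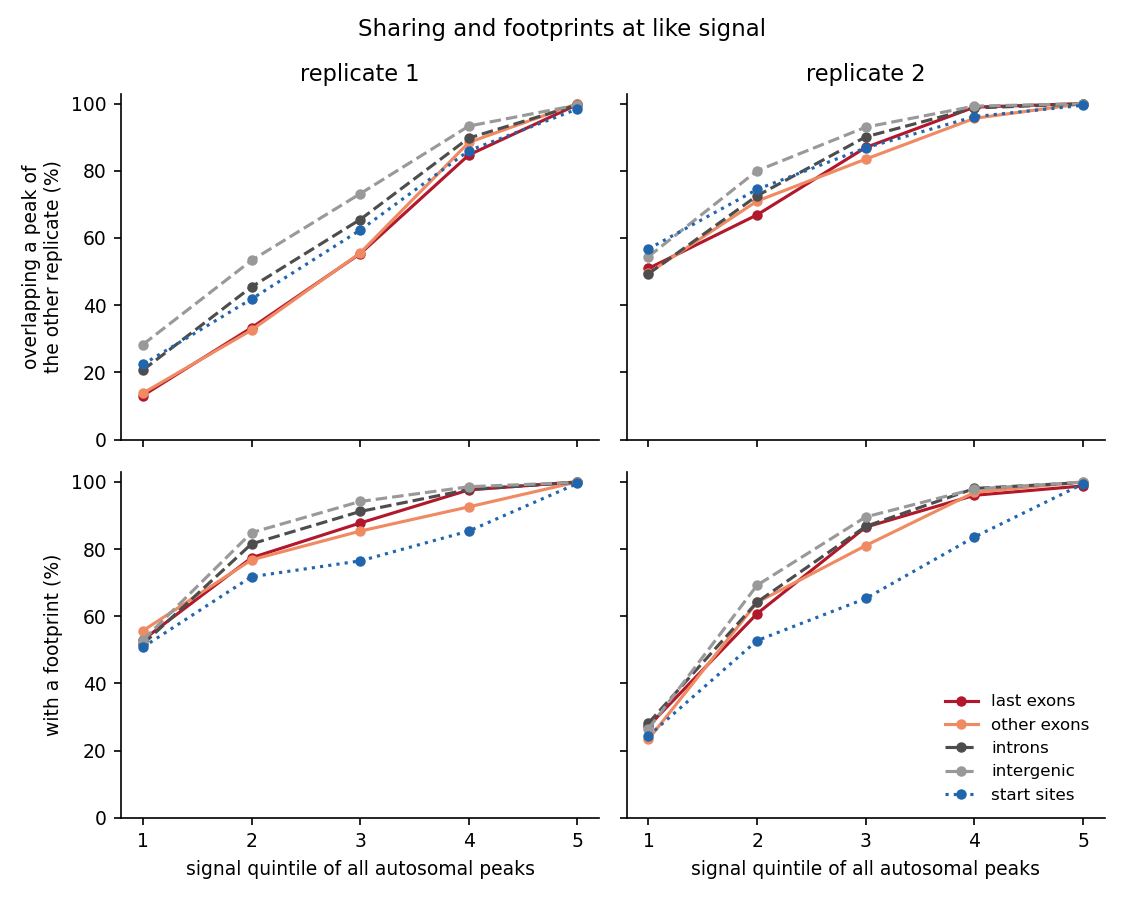
Percent of peaks overlapping a peak of the other replicate (top) and percent with a footprint (bottom) by quintile of signal (horizontal axis, 1 weakest), for replicate 1 (left) and replicate 2 (right); lines are last exons, other exons, introns, intergenic peaks and peaks at starts. In the second quintile of replicate 1, last-exon sites were shared in 33.3% and intronic peaks in 45.4%, and in the top quintile nearly all were shared.

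The unshared sites were weaker. In replicate 1 the 2241 unshared sites had a median signal of 0.396, against 0.781 for shared sites. In replicate 2 the 615 unshared sites had 0.530 against 0.947. Of the unshared sites of replicate 1, 26.3% lay in the dense windows, which are defined by unshared peaks. Of the unshared sites, 8.66% and 20.2% had a base that the other library's table listed as cut above background, at a false discovery rate below about 0.05. The share over all unshared autosomal peaks was 12.4% and 24.6%.

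The strongest unshared sites were far weaker than the strongest shared ones. In replicate 1 the highest last-exon one was in Fosb, an immediate-early AP-1 subunit, with 1.61, where the table of replicate 2 still listed a rate of 6.83e-05. It was followed by Bcan, the brain proteoglycan brevican, with 1.34 and Psd, an Arf6 exchange factor, with 1.28, both in dense windows. In other exons of replicate 1 they were Riiad1 with 1.22, Prr36 with 1.06 (in a dense window) and the corepressor gene Irf2bp2 with 1.04. In replicate 2 the last-exon ones were Agap2, an Arf GTPase-activating protein, with 1.45, Nudt18 with 1.31 and the RNA-binding protein gene Celf5 with 1.26 (in a dense window). In other exons of replicate 2 they were Arhgap33 with 1.33, a second site in Agap2 with 1.32 and the synaptic scaffold gene Caskin1 with 1.29, where the table of replicate 1 listed a rate of 0.0455.

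Footprints lay in most exonic sites, as in other peaks. At least 1 footprint overlapped 3702 sites (80.6%) in replicate 1 and 2152 (72.5%) in replicate 2, against 82.5% and 72.3% of all autosomal peaks. The share was 82.3% and 74.8% in last exons and 77.4% and 67.7% in other exons. Exonic sites held a mean of 2.13 and 1.73 footprints, fewer than the 3.37 and 2.89 of peaks at starts. The median footprint width in exonic sites was 9 bp in both libraries. Of the footprints in exonic sites 28.2% and 54.6% overlapped a footprint of the other library, against 39.4% and 61.5% in all autosomal peaks. Where the peak itself was paired the shares were 44.9% and 61.5%, against 49.8% and 65.8%. At least 5 footprints were found in 9.84% and 6.20% of exonic sites, against 14.8% and 11.9% of all peaks and 6.26% and 3.83% of intronic peaks, with a maximum of 32 and 14 in 1 site. Shared sites had a footprint in 91.1% and 80.4% and unshared sites in 69.5% and 42.0%. The same split over all autosomal peaks was not computed, so this gap is not shown to be particular to exonic sites. Footprints rose with signal in all peaks. From the lowest to the top signal quintile, 52.2% to 99.7% of all autosomal peaks had one in replicate 1. In replicate 2 the range was 26.7% to 99.5%.

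CTCF matches set exonic sites apart from other exonic sequence. An exact match to the CTCF consensus on either strand was found in the 200 bp window of 265 sites (5.77%) in replicate 1 and 247 (8.32%) in replicate 2, against 0.164% of eligible exonic windows. The share among all autosomal peaks was 5.17% and 5.91%, in introns 6.42% and 7.72%, and at starts 1.86% and 2.02%. Footprints covered 95.1% and 81.9% of the matches in exonic sites, and 93.3% and 82.6% of those in all peaks. Sites with a match had a median signal of 1.14 and 1.45, and 89.8% and 97.2% of them were shared. These too were close to the values of all peaks with a match, a median of 1.14 and 1.49 with 87.1% and 97.3% shared. Last-exon 3' UTR sites held a match in 9.52% and 12.6% and last-exon coding sites in 2.45% and 3.84%, although the eligible windows of these kinds held one in 0.162% and 0.186%.

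The other 13 consensus sequences were each found in fewer exonic sites or lay nearer to the exonic background. The SP/KLF box GGGGCGGGG was in 1.48% and 1.28% of exonic sites and 0.426% of eligible windows, but in 10.4% and 11.1% of peaks at starts. The ETS site CCGGAAGT was in 0.805% and 0.741% of exonic sites and 3.02% and 3.33% of peaks at starts. The proneural E-box CAGATGG, bound by neuronal bHLH factors, was in 8.25% and 9.63% of exonic sites, 4.43% of eligible windows and 8.06% and 8.25% of all peaks. The NFI site TTGGCA was in 15.5% and 16.2% against 11.2% of eligible windows. AP-1 (TGANTCA) at 4.42% and 4.78%, SOX (ACAATGG) at 1.83% and 1.68%, POU (ATTTGCAT) at 0.479% and 0.539% and MEF2 (CTAAAAATA) at 0.261% and 0.337% were below the eligible windows, which held 5.42%, 2.88%, 1.05% and 0.423%. The remaining 5, CRE, NRF1, EGR, RFX and YY1, were each in under 1% of exonic sites and more often there than in eligible windows. The eligible windows were not matched for GC, with a mean of 45.4% against 56.9% and 56.4% in exonic sites. How far base composition accounts for the gaps, for CTCF or the other motifs, was not tested. Matches of different motifs may overlap and were counted separately, and a match shows letters, not a bound factor.

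**Figure D5:**
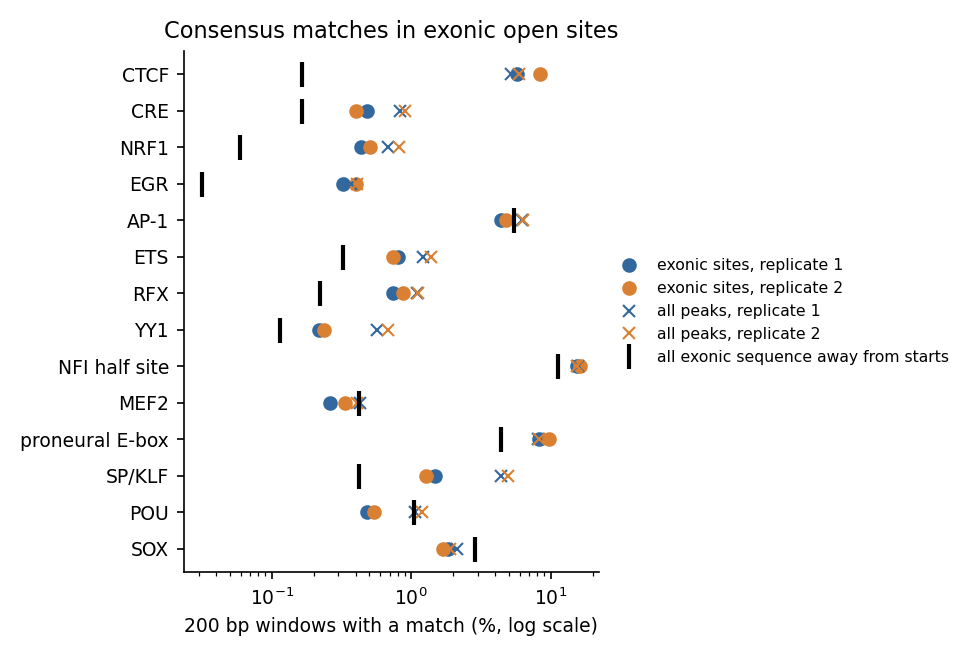
Percent of 200 bp windows with an exact consensus match (horizontal axis, log scale) for 14 motifs: circles are exonic sites, crosses all autosomal peaks (blue, replicate 1; orange, replicate 2) and black bars all eligible exonic windows. CTCF shows the widest gap, 5.77% and 8.32% of exonic sites against 0.164% of eligible windows.

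Exonic sites were spread over many genes. Of 19788 coding genes with eligible exonic bases, 3152 (15.9%) held a site in replicate 1 and 2383 (12.04%) in replicate 2, 1941 in both, and 1880 held a shared one. Most of these genes, 2265 and 1919, held a single site. Some sites overlapped another peak of the same list, 322 in replicate 1 and 119 in replicate 2, and were counted singly.

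The 5 genes with the most sites differed in whether the libraries gave like counts. Otx1, a homeobox factor of deep cortical layers, held 8 and 9, none in a dense window, and Tchh, the hair follicle protein trichohyalin, 7 and 9, also outside them. Tns1, a focal adhesion protein gene, held 8 and 10, of which 7 and 9 lay in dense windows. Shank1 held 15 and 1 and Bcl9l, a co-activator of Wnt signalling, 13 and 1, all of them in dense windows. The counts of the last 2 genes thus rest on replicate 1.

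Neuronal genes held more sites per exon length than coding genes in general in replicate 1, but not outside its dense windows. All coding genes together held 7.08 and 4.56 sites per 100 kb of eligible exon, and 6.13 and 4.44 outside the dense windows. The 19 pan-neuronal and synaptic genes held 22.7 and 6.87, with 8 of 19 genes holding a site in each library and 5 genes a shared one. Besides Shank1 the strongest was in Ank3, the ankyrin of the axon initial segment (1.80 and 2.11). Outside the dense windows this list held 4.96 and 7.44, with 6 of its 33 sites of replicate 1 and 9 of its 10 of replicate 2. Excitatory neuron genes held 9.73 and 2.65, with 5 and 2 of 15 genes, led by Tbr1, a deep-layer T-box factor (0.568 and 0.913), and 3.71 and 0.929 outside the dense windows. Inhibitory neuron genes held 2 sites and 1 site in 12 genes. Outside those windows the pan-neuronal list was thus below all coding genes in replicate 1 and above them in replicate 2, and the excitatory list was below in both.

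The glial and vascular lists held few sites, so their densities rest on small counts. Astrocyte genes held 5 and 5 sites in 12 genes (10.2 per 100 kb in both), with a shared site in 2 genes. They were led by Gfap, the astrocyte intermediate filament (1.05 and 1.08), and Sox9 (0.531 and 0.598). Oligodendrocyte-lineage genes held 5 and 4 in 11 genes (11.5 and 9.24 per 100 kb), led by the progenitor factor Nkx2-2 (2.09 and 3.92) and Olig1 (0.417 and 0.643). Endothelial and mural genes held 5 and 4 in 12 genes (8.31 and 6.65), led by the mural receptor Notch3 (2.02 and 2.54) and the VEGF receptor Flt1 (1.27 and 1.75). Microglial genes held 1 and 0 sites in 11 genes. The liver and muscle list, from organs outside the brain, held 3 and 3 sites in 13 genes, or 2.00 per 100 kb in both libraries. These genes had 149.6 kb of eligible exon, against 49.1 kb in the 12 astrocyte genes. By genes, 3 of 13 (23.1%) held a site in each library, against 15.9% and 12.04% of all coding genes, and 1 held a shared site. The strongest site of the list, in Apoa1 (the main HDL protein, 3.06 and 3.44), was above those of Gfap, Ank3 and Tbr1 in both libraries. A site is listed under the gene whose exon it lies in, which need not be a gene it acts on.

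Among gene families, ion channels held equal numbers of sites in both libraries. The 113 genes had 58 and 58 sites, 10.2 per 100 kb in both libraries, in 41 and 42 genes. A shared site lay in 30 genes, so the equal counts do not mean the same sites. The strongest were in the neuronal potassium channel Kcnq3 (1.77 and 2.38) and Kcnn4 (1.51 and 1.97). Collagens held 7.03 and 5.92 per 100 kb (Col4a3, 1.47 and 2.71; Col23a1, 1.32 and 1.50) and the large receptors of the Notch, Lrp, Celsr and Megf groups 5.15 and 5.15 (Lrp8, a reelin receptor, 1.89 and 1.91). Semaphorins and plexins, which guide axons, held 14.1 and 4.92 (Sema4b, 0.813 and 0.812; Sema6c, 0.677 and 0.699). Chromatin regulators held 10.96 and 4.24 (Chd9, 1.74 and 1.71; Kmt2a, 1.51 and 1.83). Outside the dense windows semaphorins and plexins held 14.5 and 5.03, chromatin regulators 6.30 and 4.45 and ion channels 9.65 and 9.47, so that chromatin regulators were then close to all coding genes in both libraries. Zinc finger genes of the Zfp series were sparse, with 4.81 and 2.05 per 100 kb and a site in 45 and 21 of 357 genes, Zfp771 and Zfp219 being the strongest.

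The remaining families were small or shared their sites. Hox genes held 2 and 3 sites in 38 genes, in Hoxd11 (0.734 and 0.992) and Hoxb2 (0.417 and 0.609) among them. Genes whose symbols begin Rpl or Rps held 11 and 4 sites in 61 genes; the strongest was in Rps19bp1 (1.98 and 2.86), which is not itself a ribosomal protein gene, and the next in Rpl22 (1.62 and 2.35). The clustered protocadherins, cell-surface adhesion proteins that give neurons distinct identities, are listed with a site in 22 of 57 genes in each library, but these are only 3 and 2 distinct sites, since 21 genes of the gamma cluster, Pcdhga1 among them, share the last exon that holds one of them (1.82 and 1.88). The density of that family per gene thus counts the same sites many times.

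Peaks on either side of the distance rule were close in number and signal. From 900 to 1000 bp of a start, just inside the excluded zone, coding-gene exons held 181 and 114 peaks with a median signal of 0.547 and 0.761. From 1000 to 1100 bp they held 184 and 118 sites with 0.536 and 0.756. A footprint was found in 67.4% and 64.9% of the peaks inside and 75.5% and 72.0% of the sites outside, and 52.5% and 83.3% inside and 52.2% and 76.3% outside were shared. The nearest start was a median of 4035 and 4217 bp from an exonic site. Sites lay wholly within exons in 75.5% and 75.2%, in last exons in 90.4% and 89.8% and in other exons in 47.5% and 45.1%, so most other-exon sites also reached past coding-gene exons. Density differed between chromosomes, from 56.4 and 34.3 per Mb of eligible exon on chromosome 9 to 94.1 and 57.6 on chromosome 11, the same chromosomes in both libraries. The dense windows were not left out of these values. Densities of all peaks by chromosome were not computed, so the range is not shown to be particular to exonic sites.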

How the data were processed

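Peak lists, footprint intervals and cut-rate tables from DNase-seq were used for 2 libraries, replicates 1 and 2 of 1 group. Per the labels and the text files deposited with them, all are in mm10 coordinates and derive from each library's filtered alignments. Aligner, callers and thresholds: not given in the sources used here. Signal is taken as the authors deposited it for each peak, with its scaling unstated, so sequencing depth is unknown. False discovery rates of the local cut rate, deposited by the authors and akin to a p-value, were used to see whether a base was listed. The lowest rate within the site is also quoted for the unshared sites of Fosb and Caskin1. Footprint intervals carry 0.01 in all deposited rows and could not be ranked.

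The longer peak list of each library was used. A peak's class was set at its centre, in the order start zone, coding-gene exon, non-coding gene exon, intron, intergenic, with GENCODE M21 and GRCm38.p6 sequence. An exon is last if it is the last of a coding transcript there, or of any transcript where no coding one has an exon. The only exon of an unspliced transcript is thus a last exon. A centre in both kinds (127 and 81 sites) counted as last. Coding sequence took precedence over 3' UTR, 5' UTR and other exon sequence. Eligible bases (65.8 Mb) are coding-gene exon bases over 1 kb from every start. Named were the 10 strongest paired sites of each exon kind, the 3 strongest unshared per library and kind, the 5 genes with most sites and 2 genes per list. Members and lists were chosen with earlier results of these data known. Values are medians, shares and densities, computed with Python 3.11.15, numpy 2.4.6 and pandas 2.3.3. The code was tested on simulated data, with 0 differences from a direct search over 2000 positions.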

Additional observations from a re-analysis of the deposited data

Results flagged for a closer look

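The X chromosome was outside the autosomal rule and is data the comparisons above do not use. By the same rule it held 92 exonic sites away from starts in replicate 1 (3.25% of its 2827 peaks) and 54 in replicate 2 (2.56% of 2113). Their median signal was 0.346 and 0.507, below the autosomal 0.536 and 0.823 in both libraries, and 53 and 30 lay in last exons. The median over all X peaks was not computed, so the lower signal is not shown to be particular to exonic sites.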

How the results depend on the processing

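Values here are means of both libraries. As reported they were 4.12% of autosomal peaks, 66.2% in last exons, a density ratio of last over other exons of 0.849, an exonic density of 2.16 times all sequence away from starts, a median signal of 0.680, 65.3% shared and 76.5% with a footprint. Of 63 alternative values, not counting those that leave out a library, 44 moved by less than the SD between the libraries and 19 by more. The shared share had an SD of 19.8 points between the libraries, so even large changes in it did not count as moved. It was 51.1% with 50% reciprocal overlap and 78.9% with the strongest 50% of peaks. With the shorter peak list, the member share was 3.47%, the last-exon share 69.3%, the density ratio 0.977, the median signal 1.05 and the footprint share 84.6%. With the strongest 50% of peaks they were 3.56%, 72.3%, 1.13, 1.18 and 95.04%, and the density ratio passed 1. With starts taken as 500 bp the member share was 5.54%, the last-exon share 61.8%, the density ratio 0.729 and the exonic density 2.40, and with 2000 bp the member share was 3.00%. Requiring at least 50% of the peak in exons gave a density ratio of 0.909. The last-exon share was 64.2% with coding transcripts only, 69.5% with last exons of any transcript and 63.5% with centres of both kinds counted as other. Leaving out a replicate gives the other's own value (printed with each result in the text), which with 2 libraries always lies within the SD of the mean and so says nothing about stability. The alternatives without dense windows and without sites of repeated words were chosen after seeing the data, and their 14 values moved by less than the SD. No paired analysis was possible because there is 1 group. With 2 libraries the SD has 1 degree of freedom, and the depth of each is unknown, so a site missing from a library was not detected there and is not shown to be closed.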
